A study of Mus musculus with 29 samples.

Results

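The response of subcutaneous white fat to the β3-adrenergic agonist CL316,243 was examined in female mice carrying a knockout of Ncoa1. It was measured as the difference between 3 libraries from treated mice (Female_KO_CL, codes F31, F32 and F33) and 3 libraries from saline controls (Female_KO_NaCl, codes F21, F22 and F24). These 6 of the 29 samples were chosen by their labels alone: sex, genotype and treatment. The treated mice received CL316,243 (CL) at 0.5 mg/kg body weight by intraperitoneal injection over 7 days, and the controls received NaCl over the same time. All 6 carry the knockout, so the comparison holds the genotype fixed. The rest of the study treats wild-type mice and males of both genotypes in the same way. The labels give no age or strain, do not say which part of Ncoa1 was removed or in which cells, and do not say in words that each library is a separate animal. The p-values therefore measure the spread between libraries.

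In fat cells, noradrenaline and its mimics bind β-adrenergic receptors, raise cyclic AMP and activate protein kinase A, which starts the breakdown of stored triglyceride. CL316,243 acts on the β3 receptor, the form typical of rodent fat cells. Repeated dosing is known to make white fat "beige": some adipocytes gain mitochondria and make Ucp1, the protein that lets protons leak across the inner mitochondrial membrane so that fuel is burnt as heat. Ncoa1 (SRC-1) is a coactivator that joins nuclear receptors such as PPARγ to the transcription machinery, next to its relatives Ncoa2 and Ncoa3.

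The values are FPKM (read fragments corrected for transcript length and library size), and the changes are differences of log2(FPKM + 1), given as estimate ± SE (standard error). Because of the added 1, they understate the fold change of weakly expressed genes. The absolute depth is unknown. Summed FPKM lay between 616673 and 659364 over the 6 libraries, and 11975 to 12632 genes reached 1 FPKM. Ncoa1 read 2.08, 2.17 and 1.71 FPKM in the CL libraries and 1.81, 2.9 and 2.33 in the saline libraries, against 4.93 to 9.16 over the wild-type columns, so the knockout libraries carried less but not zero Ncoa1 signal. The Y-linked genes Ddx3y, Uty, Kdm5d and Eif2s3y stayed at or under 0.07 FPKM in all columns labelled female, while Adipoq, the adipocyte hormone adiponectin, stood between 1561 and 2504 FPKM in the 6 libraries. Saline replicate 1 comes from a second, separately made expression table, and its offset was estimated across the whole series.

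Saline replicate 2 (F22) stood apart from the other 5 libraries. Acta1, the skeletal muscle actin, read 14860 FPKM there and 2.3 to 5.6 FPKM in the others. The 18 skeletal muscle genes listed summed to 74953 FPKM in that library and to 69.49 to 86.69 FPKM in the others, and all 18 reached 1 FPKM there. The 15 lymphocyte genes also varied between libraries within both groups. They summed to 33.41, 270 and 571 FPKM in the CL libraries and to 963, 12.05 and 28.86 FPKM in the saline libraries. The results are therefore given with all 6 libraries and again without saline replicate 2. In bulk tissue, fewer cells of a type and less RNA per cell cannot be told apart.

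With all 6 libraries, 677 of 13174 genes rose (5.14%) and 301 fell (2.28%), which is 7.42% in either direction, at a Benjamini-Hochberg adjusted p under 0.05 in limma. The genes that rose were led by Elovl3, Cidea and Ucp1 and by enzymes of fatty acid oxidation, while Ear2 and Creb3l1 were among those that fell. The median change over all genes was -0.02. Without saline replicate 2, 354 rose (2.69%) and 183 fell (1.39%), or 4.08% together, and the median over all genes moved to -0.13, which has to be read beside every change given without that library. Both sets share 361 genes, all in the same direction: 303 that rose (44.8% of the genes that rose with all libraries) and 58 that fell (19.3%). Saline replicate 2 was the highest of the 6 libraries in 64.5% of the genes that fell, against 12.1% of all genes tested. In the 243 genes that fell with that library included and not without it, the share was 76.1%, and in the 58 that fell either way it was 15.5%. It was the lowest of the 6 in 56.9% of the genes that rose, against 39.5% of all genes tested. In the 374 genes that rose with that library included and not without it the share was 74.1%, and in the 303 that rose either way it was 35.6%. These sets were chosen by direction and by whether the call held without that library, so the shares follow partly from that choice. They describe the sets and are no test of that library's influence. The calls rest on a spread estimated over all 8 groups of the study. Within the first table alone, which leaves out saline replicate 1, 549 rose and 234 fell. Fitted alone, the 6 libraries gave 1 gene with the table as a covariate and 5 without it. Leaving out CL replicate 1 left 359 genes, 303 of them rising, and leaving out CL replicate 2 left 461, 378 of them rising. Leaving out saline replicate 3 raised the count to 1684, 976 of them rising. List counts given below without a library have to be read beside these totals. Scaling all columns to the same median gave 715 rising and 126 falling genes, and quantile normalization gave 691 and 182, so the share that rose was 85.0% and 79.2% against 69.2% with the deposited scale.

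**Figure D1:**
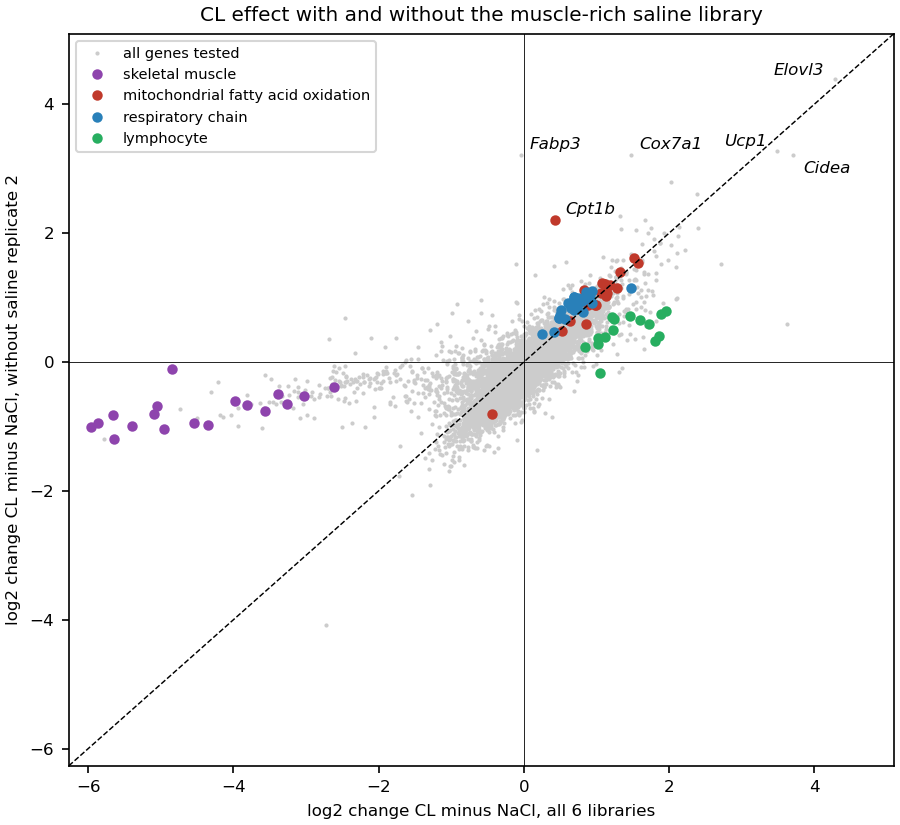
Log2 change (CL minus saline, FPKM + 1) of 13174 genes in knockout females with all 6 libraries (x axis) and without saline replicate 2 (y axis). Grey points are all genes tested, coloured points 4 gene lists, and the dashed line marks equal values. Skeletal muscle genes have a median of -4.70 with that library and -0.78 without it, and Fabp3, Cox7a1 and Cpt1b lie well above the line. The medians with and without it are 1.03 and 1.07 for fatty acid oxidation genes. For respiratory chain genes they are 0.71 and 0.92.

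Ucp1, Elovl3 and Cidea, genes of brown and beige fat cells, rose after CL. Ucp1 (chromosome 8, position 83290348 to 83298456 in GRCm38.p6) stood at 11.45, 18.37 and 12.74 FPKM in the CL libraries and at 0.72, 0.1 and 1.0 FPKM in the saline libraries. All 3 CL libraries lay far above all 3 saline libraries, and the change was 3.48 ± 0.67 (SE, n = 3 and 3, limma adjusted p = 0.0031). Elovl3, an enzyme that lengthens fatty acids and is strongly induced in cold brown fat, had the largest rise of the genes named by rule. It read 29.41, 21.41 and 25.51 FPKM after CL against 0.69, 0.5 and 0.26 FPKM after saline (4.28 ± 0.46, limma adjusted p = 1.3e-05). Cidea, a lipid droplet protein abundant in brown and beige adipocytes, read 282, 241 and 186 FPKM against 33.2, 10.2 and 21.4 FPKM (3.71 ± 0.41, limma adjusted p = 1.6e-05). Without saline replicate 2 these 3 changes were 3.28, 4.40 and 3.22, and all passed. The highest Ucp1 value in treated knockout females, 18.4 FPKM, was below all 4 treated wild-type females, which stood at 139 to 490 FPKM. It was also below the saline columns of wild-type females, which read 24.86, 137.25 and 223.9 FPKM. The first and last of these carry the same column name.

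Of 24 measured genes typical of brown and beige adipocytes, 9 passed upward, 0 downward and 15 did not pass. The median change was 0.56, against -0.02 over all genes. The count was 8 without saline replicate 2 and 4 without CL replicate 1. Cox8b, a cytochrome oxidase subunit made in brown fat and in muscle, read 1364, 1795 and 1398 FPKM after CL and 172, 768 and 260 FPKM after saline (2.03 ± 0.40, limma adjusted p = 0.0038). Its highest saline value is that of the muscle-rich library, and without it the change was 2.80. Plin5, a droplet protein that tethers mitochondria, rose by 1.36 ± 0.33 (limma adjusted p = 0.016, but 0.1 without CL replicate 1). Kcnk3, Slc27a2, Otop1 and Esrra also rose, each losing the call in at least 1 of the leave-one-out fits. Kcnk3, Slc27a2 and Otop1 lost it without saline replicate 2 (adjusted p of 0.14, 0.069 and 0.14). Of 13 genes of creatine and calcium cycling, routes of heat production that do not use Ucp1, 0 rose and 1 fell, with a median change of -0.41. Over all genes 5.14% rose and 2.28% fell, so these counts are near the shares of all genes. The gene that fell was Atp2a2, a calcium pump (-1.02 ± 0.31, limma adjusted p = 0.046), with 126 FPKM in saline replicate 2 and 26.05 to 34.55 FPKM in the other 5 libraries. None of the 13 passed without that library.

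Of 25 measured transcription factors of the PPAR, PGC-1, estrogen-related receptor and adipocyte families, 1 rose and 1 fell, and the counts were the same without saline replicate 2. These counts stand near the shares of all genes, of which 5.14% rose and 2.28% fell with all libraries. Esrra, an activator of mitochondrial genes, rose by 0.66 ± 0.19 (limma adjusted p = 0.039, and 0.045 without that library), but lost its call in the other 5 of the 6 leave-one-out fits. Rxrg, a retinoid receptor, fell (-1.18 ± 0.25, limma adjusted p = 0.0066), with an adjusted p of 0.087 without that library. There Ebf1 was the gene that fell. Ppargc1a, Dio2, Prdm16 and Ppara did not pass. Ppargc1a, the PGC-1α coactivator of mitochondrial genes, read 0.9, 0.45 and 0.53 FPKM after CL and 0.67, 1.76 and 0.91 FPKM after saline (-0.42 ± 0.19, limma adjusted p = 0.2). Dio2, the deiodinase that activates thyroid hormone, stayed at or below 1.2 FPKM in all 6 libraries (0.22 ± 0.27, limma adjusted p = 0.72). Prdm16, a determinant of brown adipocyte identity, lay between 1.04 and 1.93 FPKM, with overlapping groups. The nuclear receptor Ppara stood at 2.95, 3.91 and 2.97 FPKM against 1.88, 1.57 and 1.3 FPKM. These groups did not overlap, yet the change missed the threshold (0.69 ± 0.28, limma adjusted p = 0.15).

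Some genes used by both brown fat and muscle passed without the muscle-rich saline library and not with it. Cox7a1, a cytochrome oxidase subunit of brown fat and muscle, read 174, 215 and 131 FPKM after CL and 10.7, 326 and 18.8 FPKM after saline. With all libraries its change was 1.47 ± 0.70 (limma adjusted p = 0.22), and without saline replicate 2 it was 3.21 (adjusted p = 0.00033). Fabp3, a fatty acid carrier of heart and brown fat, read 8.9, 21.2 and 15.4 FPKM against 0.23, 354 and 0.07 FPKM. Its change went from -0.04 to 3.21 once that library was left out (adjusted p = 0.022). Cpt1b, the carnitine transferase of muscle and brown fat, went from 0.42 to 2.20 (adjusted p = 0.02). The Fabp3 change crossed zero, so any statement on this gene depends on the choice of saline libraries.

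**Figure D2:**
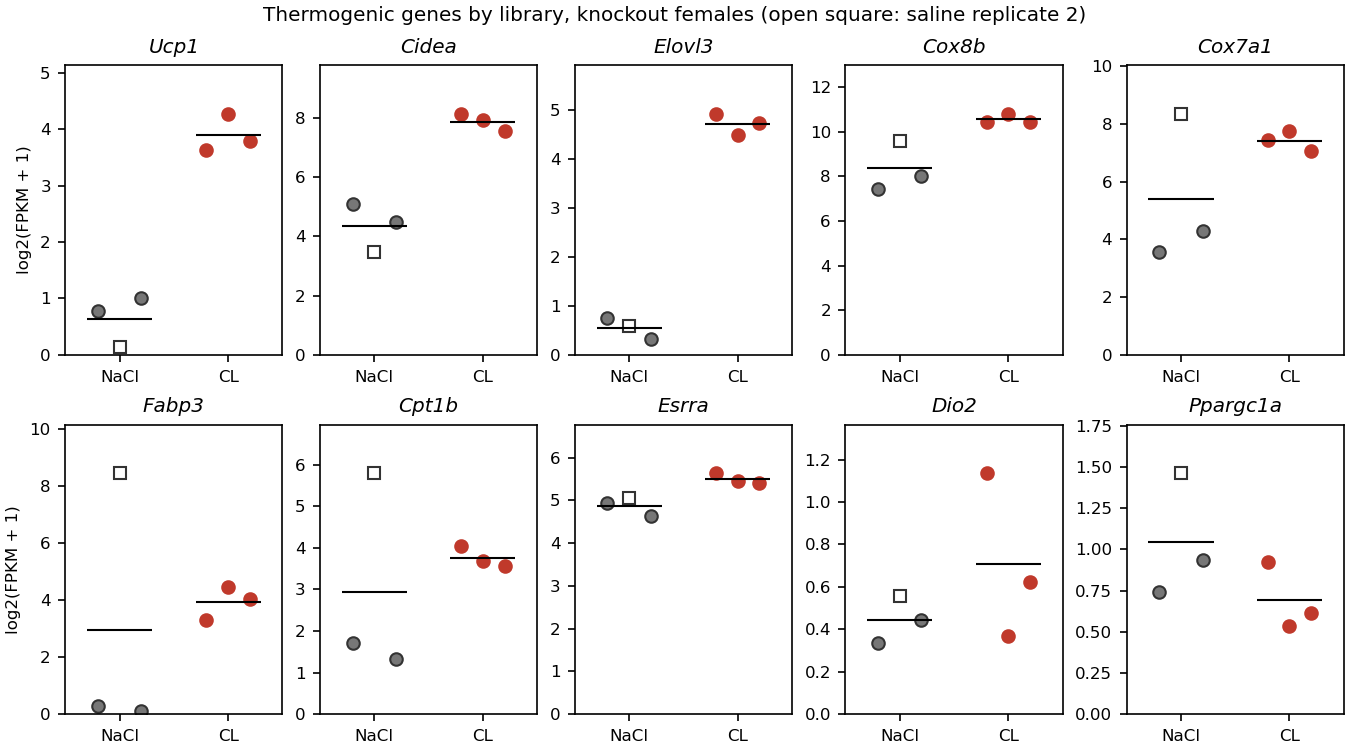
Log2(FPKM + 1) of 10 brown and beige adipocyte or muscle-shared genes in the 3 saline and 3 CL libraries of knockout females. Points are libraries, the open square is saline replicate 2, and bars are group means. Ucp1, Cidea, Elovl3 and Cox8b separate without overlap, Cox7a1, Fabp3 and Cpt1b overlap through that square alone, and Dio2 and Ppargc1a overlap throughout.

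Mitochondrial fatty acid oxidation had the highest share of called members among the lists with all 6 libraries. Of 22 measured genes, 20 rose and 0 fell, with a median change of 1.03. The count was also 20 without saline replicate 2, though the members called need not be the same, and 18 without CL replicate 1. Acadl, the long-chain acyl-CoA dehydrogenase, read 537, 439 and 380 FPKM after CL and 119, 146 and 159 FPKM after saline (1.57 ± 0.14, limma adjusted p = 3.9e-06). Acadm, its medium-chain counterpart, rose by 1.33 ± 0.14 from 108, 129 and 119 FPKM to 340, 303 and 270 FPKM. Acadvl, the very long-chain form, rose by 1.52 ± 0.17 and the auxiliary enzyme Decr1 by 1.29 ± 0.14. In each of these 4 genes, the list members of smallest p, the CL and saline libraries did not overlap. Of all genes tested, 10.5% had CL higher without overlap. Of the carnitine system, which brings fatty acids into the organelle, Cpt2 rose by 1.14 ± 0.13 and the carrier Slc25a20 by 1.07 ± 0.15. Cpt1a, the liver form of the carnitine transferase (-0.44 ± 0.26), and Cpt1b (0.42 ± 0.74) did not pass with all libraries.

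Peroxisomal oxidation, which shortens very long chains, followed at a smaller size. Of 21 genes, 10 rose with a median of 0.56, 5 without saline replicate 2 and 6 without CL replicate 1. Acaa1b, a peroxisomal thiolase, rose most, from 17.4, 14.5 and 15.5 FPKM to 76.8, 67.1 and 67.3 FPKM (2.14 ± 0.30, limma adjusted p = 0.00019). The transporter Abcd3 rose by 0.86 ± 0.16 and the bifunctional enzyme Ehhadh by 1.03 ± 0.21.

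Respiratory chain genes had a smaller median change than mitochondrial fatty acid oxidation genes (0.71 against 1.03). Of 32 nuclear-encoded subunits, 25 rose, 0 fell and all 32 had a positive change, while 7 did not pass. The count was 29 without saline replicate 2 and 13 without CL replicate 1. Cox4i1, a subunit of cytochrome oxidase, read 2111, 2027 and 1804 FPKM after CL and 821, 1007 and 1155 FPKM after saline (0.94 ± 0.13, limma adjusted p = 0.00015). Sdha of complex II rose by 0.91 ± 0.15, Ndufv1 of complex I by 0.79 ± 0.13, Uqcrfs1 of complex III by 0.94 ± 0.16 and Atp5b of the ATP synthase by 0.80 ± 0.13, so each complex of the chain is represented. Atp5c1, the γ subunit of that synthase, did not pass (0.26 ± 0.14). In the tricarboxylic acid cycle and pyruvate entry, 16 of 22 genes rose with a median of 0.72, 15 without saline replicate 2 and 8 without CL replicate 1. The pyruvate carrier gene Mpc1 rose by 1.3017 ± 0.24 and Idh3g, an isocitrate dehydrogenase subunit, by 0.97 ± 0.15. Pdk4, the kinase that closes pyruvate dehydrogenase, had overlapping groups (-0.18 ± 0.51).

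Among 23 mitochondrial ribosomal and translation genes, 8 rose, 3 without saline replicate 2 and 1 without CL replicate 1. Of all 13174 genes, 677 rose, 354 without saline replicate 2 and 303 without CL replicate 1, so the last count is near the share of all genes. All 23 changes were positive, with a median of 0.35. Breakdown of branched-chain amino acids, another mitochondrial fuel route, had 14 of 20 genes rising, 9 without saline replicate 2 and 7 without CL replicate 1. Bckdha, a subunit of the branched-chain ketoacid dehydrogenase, read 356, 327 and 297 FPKM after CL and 150, 131 and 134 FPKM after saline (1.33 ± 0.12, limma adjusted p = 3.9e-06). Both propionyl-CoA carboxylase genes rose, Pccb by 0.95 ± 0.12 and Pcca by 0.93 ± 0.13. Of 22 antioxidant and glutathione genes 9 rose and 2 fell, including the mitochondrial Txnrd2 (0.88 ± 0.11), Sod2 (0.81 ± 0.14) and Prdx3 (0.78 ± 0.14). The rising count was 4 without saline replicate 2 and 4 without CL replicate 1.

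Some genes of fatty acid and triglyceride synthesis also rose. Of 19 genes of fatty acid synthesis 8 rose and 11 did not pass, with a median of 1.12, and 4 rose without saline replicate 2 and likewise without CL replicate 1. Acacb, the acetyl-CoA carboxylase at the mitochondrial surface, read 112, 74.7 and 69.0 FPKM after CL and 16.0, 33.8 and 20.5 FPKM after saline (1.75 ± 0.26, limma adjusted p = 0.00033). The lipogenic regulator Srebf1 rose by 1.13 ± 0.23. Fasn, the fatty acid synthase, rose by 1.16 ± 0.31 (limma adjusted p = 0.026), but not without saline replicate 2 (0.94, adjusted p = 0.14) or without CL replicate 1 (0.12). Of 19 genes of fatty acid uptake and triglyceride synthesis 10 rose, 3 without saline replicate 2 and 4 without CL replicate 1. Agpat2, which adds the second acyl chain, read 1575, 1352 and 1298 FPKM against 555, 341 and 487 FPKM (1.81 ± 0.28, limma adjusted p = 0.00049). Of 22 cholesterol genes 7 rose, 4 without saline replicate 2 and 3 without CL replicate 1, led by squalene synthase Fdft1 (1.26 ± 0.26). For comparison, 5.14% of all genes rose with all libraries and 2.69% without saline replicate 2.

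Lipolysis, the direct output of the receptor, had 5 of 15 genes rising, 2 without saline replicate 2 and 2 without CL replicate 1. The rising share over all genes was 5.14%, and 2.69% without saline replicate 2. None of the 15 fell with all libraries, and Hilpda, an inhibitor of Pnpla2, fell without saline replicate 2 (-0.61, adjusted p = 0.047). Pnpla2, the triglyceride lipase ATGL, read 1636, 1426 and 1298 FPKM after CL and 1003, 545 and 804 FPKM after saline (1.07 ± 0.17, limma adjusted p = 0.00051). The monoacylglycerol lipase Abhd6 rose by 1.01 ± 0.15. Hormone-sensitive lipase Lipe passed with all libraries (0.73 ± 0.22, limma adjusted p = 0.044), but gave 0.37 without saline replicate 2 and 0.16 without CL replicate 1 as its adjusted p. Of 13 droplet proteins, Cidea, Plin5 and the seipin gene Bscl2 (0.87 ± 0.15) rose.

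The apolipoprotein C genes were a small, large-effect group. Apoc2, the activator of lipoprotein lipase, read 23.4, 25.0 and 24.0 FPKM after CL and 1.87, 2.49 and 5.93 FPKM after saline (2.40 ± 0.31, limma adjusted p = 0.00011). Apoc1 rose from 97.4, 158 and 157 FPKM to 495, 682 and 540 FPKM (1.94 ± 0.25). Apoc4 rose by 2.38 ± 0.41 from 0.3, 1.09 and 0.29 FPKM. Apoc3 had overlapping groups and lost its call without saline replicate 2 (1.07, adjusted p = 0.25). These were the 4 members called of 16 apolipoprotein and lipoprotein lipase genes, 3 of them without saline replicate 2. Apoc1, Apoc4 and Apoc2 are neighbours on chromosome 7, and no source used here says how reads between close genes were assigned.

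**Figure D3:**
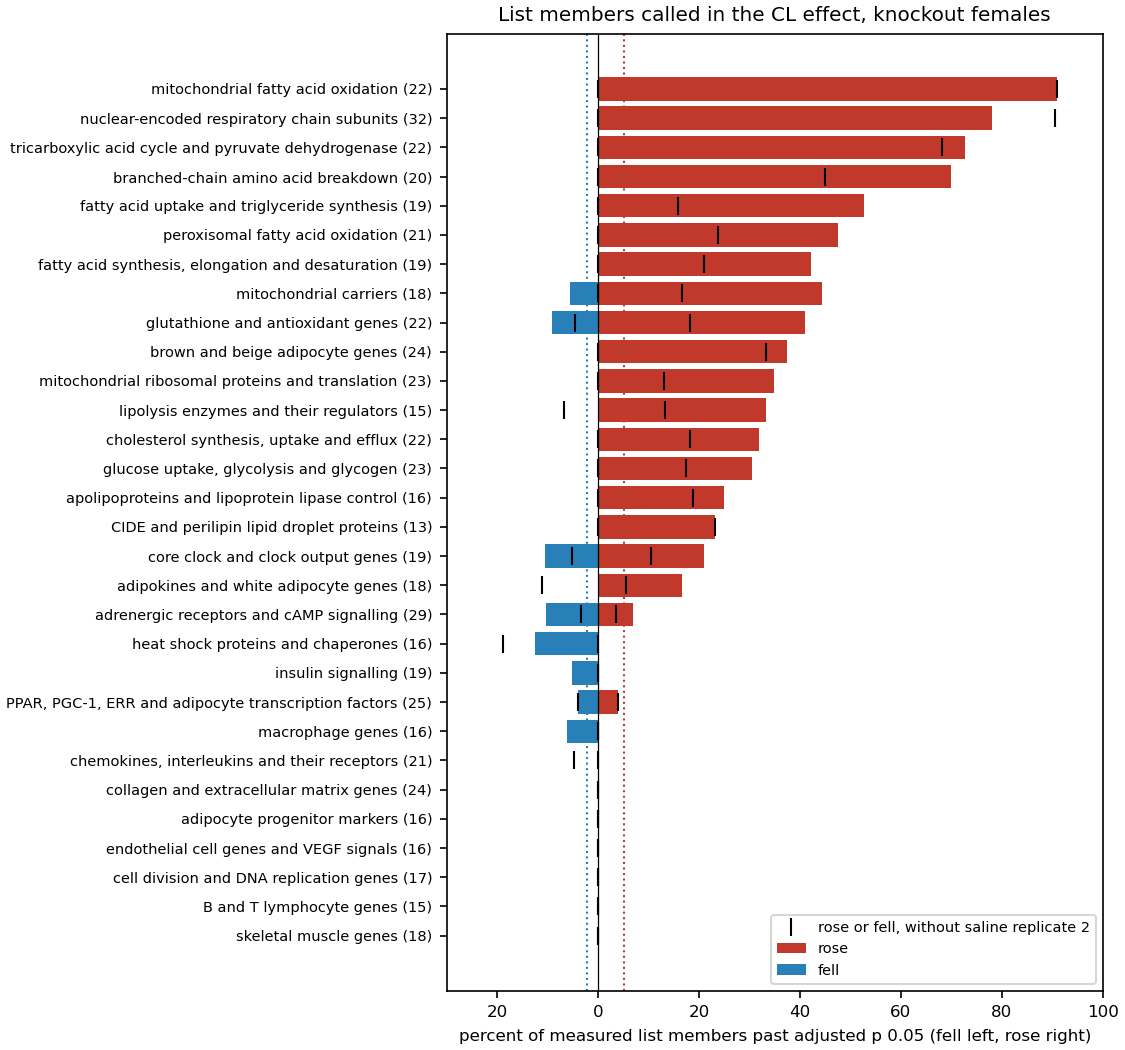
Percent of measured members of 30 gene lists that rose (right) or fell (left) at limma adjusted p under 0.05, with all 6 libraries. Black ticks are the shares without saline replicate 2, and the number of measured members follows each name. Dotted lines are the shares over all 13174 genes with all 6 libraries (5.14% and 2.28%). They do not apply to the ticks, since without saline replicate 2 the shares over all genes were 2.69% and 1.39%. Fatty acid oxidation and the respiratory chain stand furthest right both ways, and the muscle, lymphocyte and matrix lists have no called member.

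Glucose uptake, glycolysis and glycogen genes had 7 of 23 rising, 4 without saline replicate 2, 1 without CL replicate 1 and 2 without CL replicate 2. Over all 13174 genes 677 rose, 354 without saline replicate 2, 303 without CL replicate 1 and 378 without CL replicate 2. A count of 1 of 23 is thus near the share of all genes. Leaving out CL replicate 2 also lowered the rising counts to 16 in the respiratory chain, 6 in triglyceride synthesis, 5 in fatty acid synthesis, 5 in the antioxidant list, 3 in lipolysis, 3 in mitochondrial translation and 1 in the clock list. Leaving out saline replicate 3 raised them to 12 in fatty acid synthesis, 11 in the cholesterol list and 8 in lipolysis, and lowered the clock count to 2. The count for mitochondrial fatty acid oxidation stayed between 18 and 20 in all 6 of these fits.

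Adrb3, the receptor that CL binds, read 102, 111 and 107 FPKM after CL and 186, 103 and 121 FPKM after saline, with overlapping groups (-0.23 ± 0.25, limma adjusted p = 0.67). Of 29 adrenergic and cyclic AMP genes 2 rose and 3 fell, where 5.14% and 2.28% of all genes did. The counts were 1 and 1 without saline replicate 2, and 1 and 0 without CL replicate 1. Prkaca, the catalytic subunit of protein kinase A, rose by 0.67 ± 0.13 (limma adjusted p = 0.0035). Pde3a, a phosphodiesterase that removes cyclic AMP, fell by 0.60 on the log2 scale, from 1.13, 1.24 and 1.33 FPKM to 0.34, 0.43 and 0.72 FPKM, but gave an adjusted p of 0.061 without CL replicate 1. The adenosine receptor Adora1, which restrains lipolysis in fat cells through an inhibitory G protein, rose by 1.82 ± 0.25 from 15.2, 6.19 and 17.8 FPKM to 49.0, 42.2 and 36.1 FPKM.

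None of 16 coactivator genes passed, including the relatives of the deleted gene. Since 7.42% of all genes passed, this count is near the share of all genes. Ncoa2 read 4.34, 4.21 and 5.6 FPKM after CL and 5.55, 4.0 and 4.68 FPKM after saline (-0.01 ± 0.17). Ncoa3 read 4.23, 5.2 and 7.13 FPKM against 10.5, 5.41 and 6.71 FPKM (-0.28 ± 0.20). Among hormones of fat, Lep (leptin) and Adipoq did not pass (0.24 ± 0.36 and 0.29 ± 0.22). Nrg4, a growth factor released by brown and beige fat, rose by 1.67 ± 0.30 from 21.8, 15.2 and 36.5 FPKM to 103, 76.3 and 58.5 FPKM (limma adjusted p = 0.0017). Nnat, a small membrane protein gene, read 7.08, 25.43 and 17.3 FPKM after CL and 545, 27.77 and 260 FPKM after saline. It did not pass with all libraries (-2.73 ± 1.01, limma adjusted p = 0.11) and passed without saline replicate 2 (-4.07, adjusted p = 0.039).

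Clock genes split by direction. Arntl (Bmal1), the activator at the centre of the clock, read 0.44, 0.94 and 2.32 FPKM after CL and 7.74, 8.98 and 4.58 FPKM after saline (-1.70 ± 0.33, limma adjusted p = 0.0037, and 0.051 without saline replicate 2). Npas2, a partner of Arntl, fell by 1.03 on the log2 scale (limma adjusted p = 0.0038) and passed either way. Other clock genes moved the other way: Hlf rose by 1.27 ± 0.24, and Ciart, Dbp and Per3 rose by 2.03, 1.12 and 0.97 with all libraries. Those 3 gave adjusted p-values of 0.071, 0.11 and 0.19 without saline replicate 2. In all, 4 of 19 clock genes rose and 2 fell (2 and 1 without saline replicate 2, 2 and 2 without CL replicate 1), while Per1, Nr1d1 and Cry1 had overlapping groups. Over all genes 5.14% rose and 2.28% fell with all libraries, and 2.69% and 1.39% without saline replicate 2. The labels give no hour of collection, so time of day and treatment cannot be told apart.

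**Figure D4:**
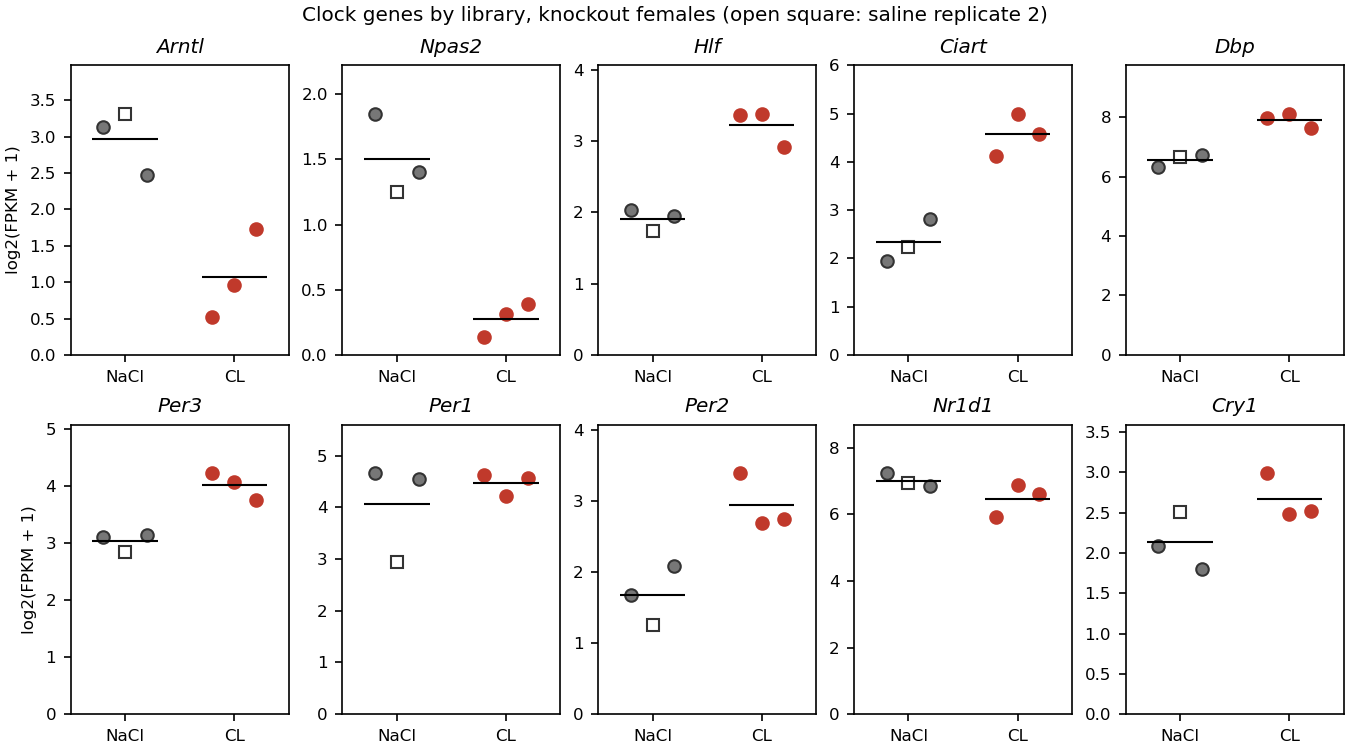
Log2(FPKM + 1) of 10 clock genes by library in saline and CL knockout females. Points are libraries, bars are group means and the open square is saline replicate 2. Arntl and Npas2 are lower in all 3 CL libraries, Hlf, Ciart, Dbp, Per3 and Per2 are higher in all 3, and Per1, Nr1d1 and Cry1 overlap.

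The start regions of 3 genes that rose are shown because each holds the palindrome TGACGTCA, the sequence bound by the cyclic AMP response factor CREB (in capitals, from RefSeq, GRCm38.p6, minus strand, 250 bases before to 50 after the gene's start). Cycs encodes cytochrome c of the respiratory chain, Uqcrfs1 the Rieske subunit of complex III, and Hlf the clock output factor. Cycs rose by 0.76 ± 0.18, but had an adjusted p of 0.073 without CL replicate 1.
Cycs, chr6:50566520-50566819: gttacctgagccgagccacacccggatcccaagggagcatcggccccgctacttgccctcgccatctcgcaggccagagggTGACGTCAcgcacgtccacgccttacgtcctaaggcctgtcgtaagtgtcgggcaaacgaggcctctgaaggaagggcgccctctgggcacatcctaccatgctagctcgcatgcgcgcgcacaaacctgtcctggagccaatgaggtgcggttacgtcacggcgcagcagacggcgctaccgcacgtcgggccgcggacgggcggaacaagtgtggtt
Uqcrfs1, chr13:30545267-30545566: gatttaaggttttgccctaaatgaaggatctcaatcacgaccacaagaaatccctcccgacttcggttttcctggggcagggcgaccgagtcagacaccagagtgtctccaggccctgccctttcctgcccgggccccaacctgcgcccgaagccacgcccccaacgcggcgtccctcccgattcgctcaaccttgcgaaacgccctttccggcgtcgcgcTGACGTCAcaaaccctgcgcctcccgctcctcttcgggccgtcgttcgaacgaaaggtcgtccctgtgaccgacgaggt
Hlf, chr11:90390868-90391167: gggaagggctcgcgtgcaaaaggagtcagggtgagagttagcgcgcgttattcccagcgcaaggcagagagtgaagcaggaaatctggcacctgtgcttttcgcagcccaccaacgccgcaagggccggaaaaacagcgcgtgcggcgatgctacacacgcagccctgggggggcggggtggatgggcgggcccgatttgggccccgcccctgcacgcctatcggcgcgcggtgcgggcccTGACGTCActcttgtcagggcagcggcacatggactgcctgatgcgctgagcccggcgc

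The match is a description of these windows. Of 10437 tested genes with such a window, 3.363% hold TGACGTCA on either strand, and 3.189% of the 533 such genes that rose do. The share among genes that rose is thus no higher than among all genes. CACGTG, the E-box bound by clock factors, is in 11.478% of all genes with a window and 10.882% of those that rose. TCAAGGTCA, the site of the estrogen-related receptors such as Esrra, is in 31 of the 10437 genes (0.297%) and 4 of the 533 that rose (0.75%). It is in 1 of 247 genes that rose in both fits (0.405%) and 1 of 235 that fell (0.426%). Such small counts allow no comparison of the shares.

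Other genes named by rule also rose. Tst, Pcsk4 and H1fx were picked for the largest changes without overlap, so their separation follows from the rule. Tst, a mitochondrial sulfur transferase, read 211, 210 and 180 FPKM after CL and 66.2, 51.9 and 56.0 FPKM after saline (1.88 ± 0.25, limma adjusted p = 0.00014). Pcsk4, a proprotein convertase, rose by 2.11 ± 0.30 from 6.1, 2.77 and 6.54 FPKM. H1fx, a linker histone, rose by 1.89 ± 0.27. The pericyte-associated proteoglycan Cspg4 rose by 1.52 ± 0.24 from 7.96, 4.88 and 10.9 FPKM to 25.9, 23.2 and 20.8 FPKM, while the other 8 measured smooth muscle and pericyte genes did not pass.

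Fewer genes fell once the muscle-rich library was set aside (183 against 301), and fewer rose as well (354 against 677). Ear2, an eosinophil-associated ribonuclease, read 15.5, 23.5 and 16.1 FPKM after CL and 29.7, 58.3 and 77.1 FPKM after saline (-1.71 ± 0.34, limma adjusted p = 0.0037). Creb3l1, a membrane-bound transcription factor of secretory cells, fell by 1.22 on the log2 scale from 17.8, 13.3 and 20.1 FPKM to 4.09, 6.24 and 8.0 FPKM. Sh3pxd2b, an adaptor of matrix-degrading podosomes, fell by 1.10 and Sytl2, a vesicle-docking protein gene, by 1.08. Tpm3, a tropomyosin, fell by 1.55 with all libraries, with 564 FPKM in saline replicate 2 against 169 and 141 FPKM in the others, and by 0.77 without it. Eln (elastin), Klhl13, Fcrls, Slc7a8 and Clec4a3 passed in both fits but each lost its call without CL replicate 1, with adjusted p-values of 0.096, 0.069, 0.12, 0.16 and 0.17.

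Genes that fell with saline replicate 2 and not without it included genes read almost wholly in that library. Stac3, a gene of muscle excitation, read 88.7 FPKM in that library and 0.67 and 0.65 FPKM in the other saline libraries, against 0.14 to 0.44 FPKM after CL. Its change was -3.08 ± 0.88 with it and -0.86 without it (adjusted p = 0.37). Pkia, Cap2, Fhl1 and Neurl1a, chosen by the same rule, went from -2.50, -2.47, -2.41 and -2.31 to -1.0047, -0.55, -0.63 and -0.61, and none passed without it.

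Matrix and macrophage genes had mostly negative changes, of which 0 of 24 and 1 of 16 passed, where 2.28% of all genes fell. All 24 collagen and extracellular matrix genes had a negative change, with a median of -0.67, and 0 passed. Their sums were 2685.8 to 3499.3 FPKM after CL and 4076.1 to 6024.6 FPKM after saline, and 16 of 24 did not overlap, against 9.4% of all genes with CL lower. Col1a1 read 105, 140 and 139 FPKM after CL and 242, 201 and 293 FPKM after saline (-0.88 ± 0.28, limma adjusted p = 0.06). The 16 macrophage genes summed to 1033.5 to 1750.1 FPKM and 1903.7 to 3268 FPKM, and 1 of them, Adgre1, fell (-0.97 ± 0.29, limma adjusted p = 0.047), but lost the call in 5 of the 6 leave-one-out fits. Adipocyte progenitor genes had 0 of 16 called, with sums of 1032.4 to 1420.6 FPKM and 1393.6 to 2689.6 FPKM. The lymphocyte list had 0 of 15 called and 15 positive fitted changes, although saline replicate 1 held the most lymphocyte signal. That library's table offset enters its fitted level, so no direction is read from that list.

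The CL effect of knockout females was compared with that of wild-type females and of knockout males by interaction terms in the same limma fit. Against wild-type females 3 of 13174 genes differed (0.0228%), all milk protein genes. Csn2 had a difference of 6.19 ± 0.41, but stood at 0 to 0.39 FPKM in the 6 knockout libraries. The saline columns of wild-type females read 0.25, 113.8 and 14860 FPKM, and the first and last of these carry the same column name. With such columns as separate mice, 0 genes differed. The Ucp1 difference was 1.299 ± 0.960 (limma adjusted p = 0.927), that of Cidea 1.64 ± 0.58 and that of Elovl3 1.63 ± 0.65 (both 0.927), so none passed. Leaving out saline replicate 3 gave 8 genes and leaving out the first wild-type CL replicate gave 6.

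Against knockout males 4 genes differed (0.0304%). Tst rose in females as described, while its values in males were 189 to 273 FPKM over the saline columns and 116 to 324 FPKM after CL (1.89 ± 0.33, limma adjusted p = 0.034). Aldh3b2, an aldehyde dehydrogenase, read 45.03, 40.1 and 33.1 FPKM after CL and 11.8, 12.2 and 14.1 FPKM after saline in females, and 23.9 to 32.6 against 14.7 to 22.2 FPKM in males (1.08 ± 0.19, limma adjusted p = 0.034). Sult1e1, the estrogen sulfotransferase, lay at 0 to 0.07 FPKM in all 6 female libraries, while male columns read 19.2 to 49.2 FPKM after saline and 3.96 to 8.93 FPKM after CL (difference 2.09). Gdf10, a secreted factor of the BMP family, lay at 10.6 to 21.8 FPKM in females with overlapping groups, and at 41.1 to 96.9 against 10.3 to 16.0 FPKM in males (1.82). The count rests on single libraries. It was 494 without saline replicate 3, and 0 without saline replicate 2 or without male saline replicate 1, where 1490 and 1580 genes had an unadjusted limma p under 0.05. It was 1 without CL replicate 2, saline replicate 1, male CL replicate 3 or male saline replicate 2, 2 without CL replicate 1 or male saline replicate 3, and 12 without male CL replicate 4. Cidea differed by 2.15 ± 0.53 (limma adjusted p = 0.15) and Elovl3 by 2.32 ± 0.59 (0.18), neither past the threshold.

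**Figure D5:**
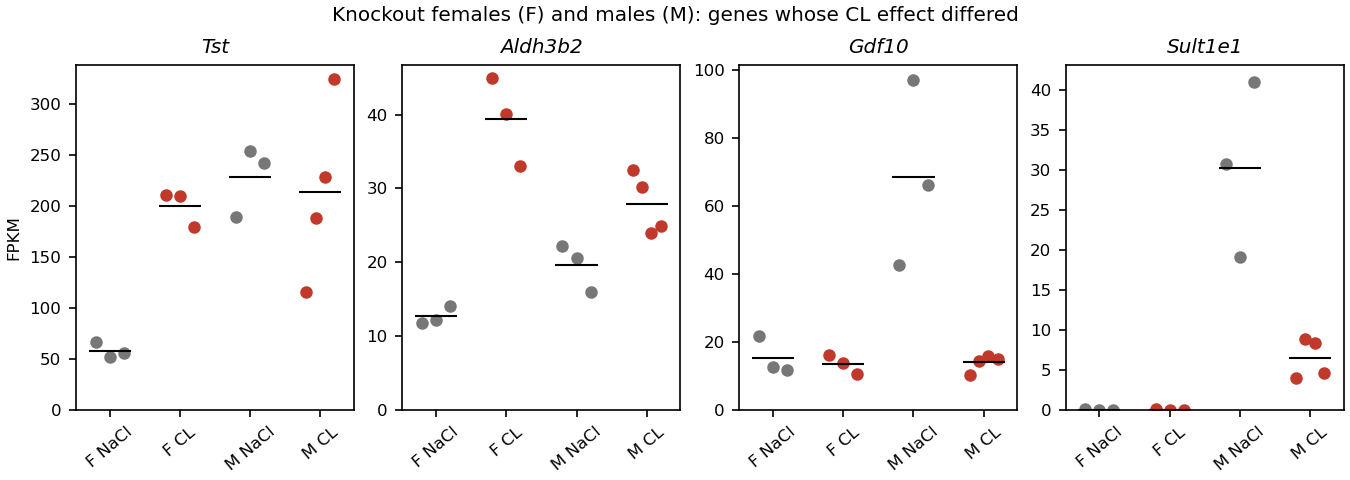
FPKM of 4 genes whose CL effect differed between knockout females (F) and knockout males (M) in limma, by group. Points are mice, with columns that share a name averaged, and bars are means. Tst and Aldh3b2 are higher after CL in every female, and Gdf10 and Sult1e1 differ between saline and CL in males but not in females.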

How the data were processed

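Single or paired-end reads from frozen subcutaneous fat were sequenced on a DNA nanoball platform, per the labels' protocols. The deposited values are FPKM per gene in 2 tables, and HISAT2 2.0.4 and GRCm38/mm10 are named in the submitters' processing notes. No source used here names the program that made the FPKM or its gene annotation. The first table has 24 columns and 18658 genes, the second 5 columns and 17677 genes, and 17536 are in both. All 6 libraries compared have a column, with saline replicate 1 in the second table. For 2 names in both tables, log2 values were averaged as 1 mouse, which leaves 27 mice. The records Female_WT_NaCl replicate 2 and Male_KO_NaCl replicate 4 have no column under their own name, and it is not known if a repeated column holds them. The treatment texts of the CL samples carry different last digits, so groups follow the titles.

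A gene was tested if 3 or more mice reached 1 FPKM, which left 13174, fitted as log2(FPKM + 1) in limma 3.58.1 (two-sided moderated test, trend=TRUE, under R 4.3.3), with 8 group means, the table as a covariate, 18 residual and 2.92 prior degrees of freedom, and Benjamini-Hochberg adjustment over all genes at 0.05. The exact permutation test of 3 against 3 cannot go below 0.1, so none is given. The value of 1 read in the first table differed little between libraries (0.984 to 1.04, from 17 to 45 genes each), but is rough. On simulated data the fit called 20%, 68%, 96% and 98% of genes changed by 0.5, 1, 2 and 4 on the log2 scale in this comparison. The simulated noise was normal, independent between mice and equally wide in all groups. It held no library like the muscle-rich saline library, so these shares need not hold for the real libraries. Libraries with the same replicate number had negatively correlated deviations from their group means, and no pairing was used. So few libraries cannot exclude a pairing.

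Gene lists (46) and members were chosen with earlier results of these data known, so they are described by counts and medians and give no independent support. Named genes are the 12 rising and 12 falling with the largest change that passed with and without saline replicate 2, did not overlap and averaged at least 5 FPKM, the 5 largest falls lost without it, 11 fixed genes, up to 4 of smallest p per list, and those of the interactions. Others were named after their values were seen.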

Additional observations from a re-analysis of the deposited data

Results flagged for a closer look

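The CL effect differed between knockout and wild-type females, by the interaction term in limma, for 3 genes of milk proteins: Csn2 (6.19), Csn1s1 (5.34), Lalba (3.68). In the 6 knockout libraries these 3 stayed at or below 1.15 FPKM. The wild-type saline columns that share a name read 0.25 and 14860 FPKM of Csn2, so the difference rests on wild-type saline values.

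The CL effect differed between knockout females and knockout males, by the interaction term, for Sult1e1 (2.09), Gdf10 (1.82), Tst (1.89) and Aldh3b2 (1.08). Tst and Aldh3b2 rose in the females, while Sult1e1 and Gdf10 differed through the males. The outlier test needs at least 4 libraries in a group and was not applied to groups of 3.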

How the results depend on the processing

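Elovl3 passed in all 22 alternatives, Ucp1 in 21 and Cidea in 20. Where Ucp1 or Cidea did not pass, the fit used the compared groups alone. With only the 6 libraries compared, 1 gene passed with the table covariate and 5 without it, where the gene lists kept 1 and 3 members and the named genes 1 and 4. Array weights, which did not converge, gave 447 genes, 113 list members and 73 named genes. Leaving out 1 library gave 359 (CL replicate 1) to 1684 genes (saline replicate 3) against 978, and 95 to 245 list members against 189, and the cause was not tested. Of 211 called genes followed, 88 kept their call in every alternative other than the fits of the compared groups alone. Without saline replicate 2, Fabp3 was 3.213 and Aldoa 0.914, and both passed. Without saline replicate 3 they were -2.835 and -0.799. The replicate block gave 795 genes. Same-numbered libraries had correlations of -0.48, -0.095 and -0.22 in their deviations from the group means. With so few libraries per group, these values cannot show whether the numbers carry a pairing.

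The 3 genes that differed by genotype became 0 with a pseudocount of 0.1 and with the first table alone. They also became 0 with repeated names as separate mice or with their first-table column. In these settings 603 to 1660 genes had an unadjusted limma p under 0.05. Requiring 1 FPKM in at least 6 mice also gave 0, with 601 such genes. That filter left the 3 genes untested, so its 0 is no check on them. The 3 genes became 1 with the compared groups and the table covariate or with the second-table column, and 8 with no filter. Leaving out 1 library gave 3 to 8. With the first table alone Csn1s1 was -0.255 and Csn2 -0.148. The 4 genes that differed by sex became 0 with a pseudocount of 0.1 and with the compared groups alone with or without the covariate (950 to 1328 genes at an unadjusted limma p under 0.05), and 1 with the first table alone, the first-table column or array weights. They became 2 with quantile normalization, repeated names as separate mice, the second-table column or those mice left out (added after seeing the data), 7 with no variance trend and 10 with no filter. Leaving out 1 library gave 0 to 494. FPKM hold no counts, so limits set by depth cannot be given.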
